A study of Homo sapiens with 2 samples.

Results

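The genes described here are 6 that take part in the breakdown and organisation of the extracellular matrix: the secreted collagenase MMP1, the membrane-anchored metalloproteinases MMP14 and MMP15, the membrane protease ADAM9, the metalloproteinase inhibitor TIMP2 and the matrix glycoprotein thrombospondin-1 (THBS1). They were taken by gene symbol from the platform annotation, which gave each of the 6 genes 1 probe set among 16098 named probe sets and 14884 named genes. The samples were cultures of AsPC-1, an established line of human pancreatic adenocarcinoma, kept in 3 dimensions beneath an overlay of collagen gel in medium with serum. Of the 2 groups, the uncompressed culture carried no load and the compressed culture bore 2.9 mmHg, each for 24 h, and total RNA of each was hybridised to 1 whole-transcript array. The study's title asks how compressive stress is sensed in pancreatic cancer through free zinc in the cell.

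Matrix metalloproteinases are enzymes with a zinc ion in the active site. They are made as inactive proforms and are held in check by the TIMP proteins. MMP1 opens the triple helix of fibrillar collagen so that other proteases can digest it. MMP14 does so at the cell surface and also activates pro-MMP2 in a complex that contains TIMP2, while ADAM9 belongs to the disintegrin metalloproteinases that shed proteins from the membrane. Thrombospondin-1 binds matrix proteins, cell surface receptors and proteases, and can release active TGF-beta from its latent form.

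With 1 array in each group there is no replicate check, so levels and differences are given with no test, and a gene called "higher" or "lower" is so on these arrays alone. Values are log2 levels made by RMA, and a difference is compressed minus uncompressed on that scale. A difference of at least 1.5-fold (0.58 on the log2 scale) is called by size. The median level over named genes was 4.79, and genes with a mean at or above it are called kept. The levels of different genes come from different probes and do not rank their transcripts. In bulk RNA, fewer expressing cells and less transcript per cell cannot be told apart.

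In the compressed culture MMP1, THBS1 and TIMP2 were higher by the size rule, ADAM9 was higher by less than that, and MMP14 and MMP15 read almost the same on both arrays. Thus 3 of the 6 genes were at least 1.5-fold higher and 0 were lower, where 3.76% of all named genes were higher and 2.83% lower by that size. Of the 5 members that were kept, 2 were higher, against 3.95% of the 7442 kept genes. TIMP2 passed by a narrow margin and fell short after repeated quantile normalization, which left 2 of the 6 and 1 of the 5 kept. These 6 genes were put together with results of these arrays known, so the counts describe them and support nothing. Their median difference was 0.50, while that over all named genes was -0.01.

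**Figure D1:**
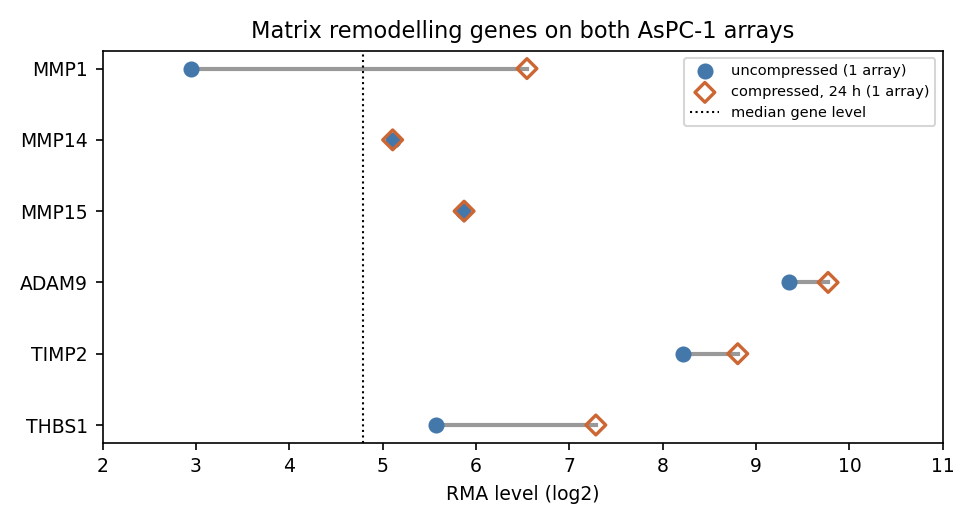
RMA level (log2, horizontal axis) of the 6 genes on the uncompressed array (filled circles) and the compressed array (open diamonds), 1 array each, with the median gene level of 4.79 as a dotted line. MMP1 crosses that line, THBS1, TIMP2 and ADAM9 move to the right above it, and the symbols of MMP14 and MMP15 lie on each other.

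MMP1 read 2.95 on the uncompressed array and 6.55 on the compressed array, a difference of 3.60. This was the highest difference of all 14884 named genes, followed by 3.01 for the metallothionein gene MT1B. The uncompressed level was low, with only 15.9% of named genes reading lower, and whether it lay above background is unknown, so no fold is given. The size of the difference and its rank rest on that dim reading. On the compressed array MMP1 stood 1.75 above the median gene level, and 78.5% of named genes read lower. The mean of MMP1 over both arrays, 4.75, falls just under the level filter, so it enters no count of kept genes. It is among the 7774 genes whose brighter array was at or above 4.79, of which 4.41% were higher by 1.5-fold. Genes that cross the median level in this direction carry positive differences by construction, and 101 of 330 of them passed 1.5-fold.

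**Figure D2:**
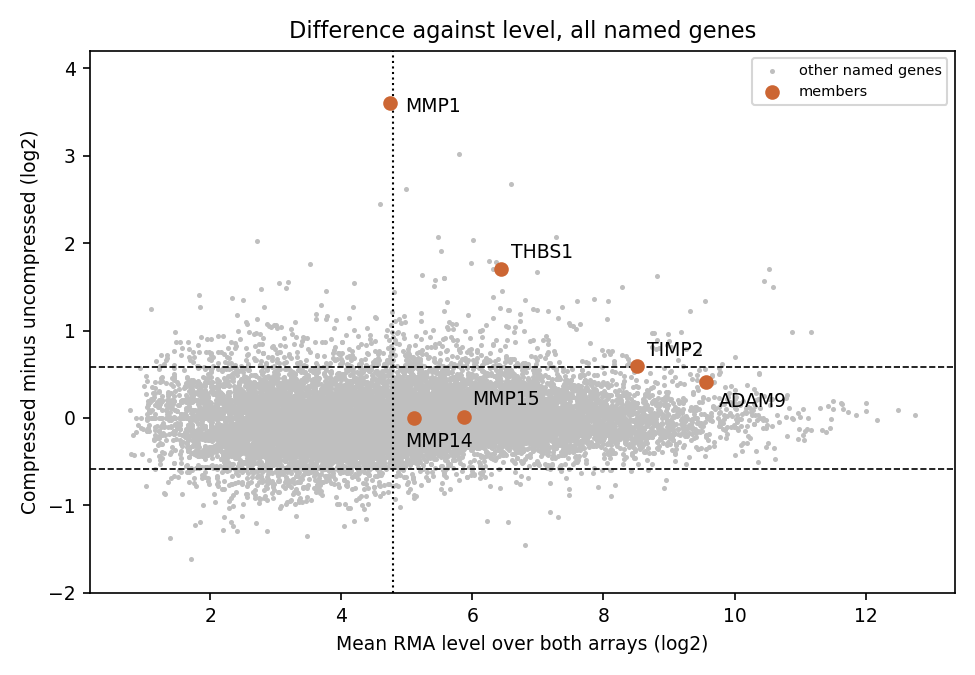
Difference between the arrays (log2, vertical axis) against the mean level over both arrays (log2, horizontal axis) for all named genes (grey) and the 6 members (orange), with dashed lines at 1.5-fold and a dotted line at the median gene level. MMP1, at 3.60, lies above every other gene, THBS1 lies among the upper few, TIMP2 lies on the upper dashed line and MMP14 and MMP15 lie at 0.

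MMP1 is one of a row of MMP genes on chromosome 11. In the RefSeq gene order the row runs MMP7, MMP20, MMP27, MMP8, MMP10, MMP1, MMP3, MMP12 and MMP13, with MMP7 and MMP3 not analysed here. The 6 named neighbours read below the median gene level on both arrays. MMP10, which encodes stromelysin-2 and lies next to MMP1, read 2.04 uncompressed and 3.52 compressed, a difference of 1.48 that ranked 32 among all named genes. Both of its levels were low, so whether it was above background is unknown. The other 5 differed by -0.09 (MMP13) to 0.51 (MMP27). MMP1 was thus the 1 gene of the named row that read above the median gene level on either array. Of the genes below the median level by their mean, 3.57% were at least 1.5-fold higher and 4.54% at least 1.5-fold lower.

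**Figure D3:**
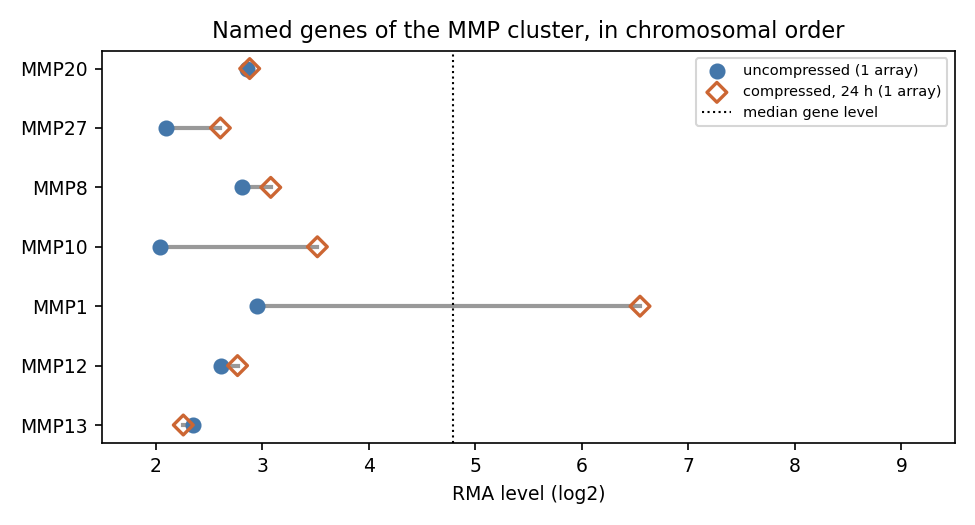
RMA level (log2, horizontal axis) of the named MMP genes in the chromosome 11 row, from top to bottom in RefSeq gene order, on the uncompressed (filled circles) and compressed array (open diamonds), with the median gene level as a dotted line. MMP1 ends at 6.55, MMP10 moves from 2.04 to 3.52, and the others shift by about 0.5 or less.

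Of the wider list of 16 secreted MMPs, 12 were named. MMP1 and MMP10, 2 of the 12, were at least 1.5-fold higher, where 3.76% of all named genes were. MMP1 was chosen with results of these arrays known, and MMP10 was below the median level on both arrays. This count therefore describes the list and supports nothing. The list's median difference was 0.21, against -0.01 over all named genes. The 1 kept member was MMP28, which encodes epilysin, at 5.83 uncompressed and 5.58 compressed. MMP11, which encodes stromelysin-3, was below the median level on both arrays, at 4.40 and 3.996. MMP2, MMP3, MMP7 and MMP9 were not analysed here.

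Among the membrane-anchored MMPs, MMP14, which encodes the collagenase of the cell surface, read 5.11 on both arrays. The deposited values were equal to the last digit, as they were for 737 of the 14884 genes and 182 of the 7442 kept genes. MMP15, which encodes a second transmembrane MMP, read 5.86 and 5.87, a difference of 0.01 whose sign turned after loess correction (-0.02) and repeated quantile normalization (-0.04). All 7 listed membrane MMPs were named, 6 were kept and 0 passed 1.5-fold in either direction, a count near the background of 3.95% higher and 1.12% lower. The differences of the kept genes ran from -0.21 to 0.01. MMP24, a transmembrane MMP of nervous tissue, read 6.20 and 6.07 by its brighter probe set and 3.80 and 3.88 by the other. MMP23B read 5.36 and 5.19. The difference between MMP1 and these genes could not be tested with 1 array per group.

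ADAM9 read 9.36 on the uncompressed and 9.77 on the compressed array, a 1.33-fold difference that did not reach the size rule. Among kept genes, 652 had a greater positive difference. Of 21 listed ADAM genes 19 were named and 8 kept, and 0 of the kept genes passed 1.5-fold, which for 8 genes is near the background of 3.95% higher and 1.12% lower. Of these 8, 6 had a positive difference, with a median of 0.12, where the median over kept genes was 0.01. ADAM17, the sheddase of TNF and of several EGFR ligands, read 7.05 and 7.41. ADAM10, the sheddase of Notch, read 8.12 and 8.37. ADAM19 read 7.91 and 8.06, and the lowest of the 8 differences was that of ADAM33, at -0.42. The 1 ADAM gene past the size rule was ADAM30, at 2.97 and 2.22, below the median level on both arrays. Of all named genes, 2.83% were lower by that size.

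TIMP2, which encodes an inhibitor of MMPs that also docks pro-MMP2 to MMP14, read 8.21 on the uncompressed and 8.80 on the compressed array. It was 1.51-fold higher, which exceeds the size rule by only 0.0054 on the log2 scale, and 288 kept genes had a greater difference. After repeated quantile normalization its difference was 0.584, just short of the size rule. The other inhibitors did not move as one. TIMP1 read 7.85 and 8.25, a difference of 0.40, while TIMP4 read 6.44 and 6.04, a difference of -0.40. TIMP3 and the membrane-anchored inhibitor RECK stayed below 3.2 on both arrays.

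THBS1 read 5.58 on the uncompressed and 7.28 on the compressed array and was 3.27-fold higher, with a difference of 1.71. It ranked 11 among the 7442 kept genes and 15 among all named genes. Both levels lay above the median gene level. The value ran from 1.67 to 1.72 over the alternative normalizations. Of the other thrombospondins, THBS2 read 5.67 and 5.30, THBS3 4.85 and 5.19, and THBS4 and COMP were below the median level on both arrays. THBS1 was the 1 of 5 that passed the size rule, where 3.76% of all named genes were higher by that size. Since THBS1 was chosen with results of these arrays known, this count describes the family and supports nothing.

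The promoter of THBS1 is shown because it is the member with a called difference for which the RefSeq table (GRCh38.p14) holds a window. Windows were matched by symbol for 3 of the 6 members, THBS1, MMP14 and MMP15. The sequence is the 250 bases before the annotated start on the plus strand, chr15:39580829-39581078. Capitals mark matches to a loosened form of the core of the metal response element, the site of the zinc-sensing factor MTF1.
THBS1: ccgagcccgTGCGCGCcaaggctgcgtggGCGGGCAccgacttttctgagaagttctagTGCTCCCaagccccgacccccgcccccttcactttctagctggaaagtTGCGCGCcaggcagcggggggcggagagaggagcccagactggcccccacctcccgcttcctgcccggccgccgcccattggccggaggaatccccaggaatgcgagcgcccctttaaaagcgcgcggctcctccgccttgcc
The letters searched were TGCNCNC on either strand, which 49.1% of all 35116 windows hold at least 1 time. They are looser than the core TGCRCNC, in which base 4 is A or G. In THBS1 the matches TGCTCCC and GCGGGCA (minus strand) have T or C at that base, so the matches are not a count of MTF1 cores. The THBS1 window held 4 matches, a number reached in 1.77% of windows, and its GC content was 69.6% where the median window had 58.0%. The MMP14 window (GC content 56.8%) and the MMP15 window (74.8%) held 1 match each, neither with A or G at base 4. Whether matches go with a difference between the arrays was not tested. The AP-1 site (TGANTCA, in 6.57% of windows), the cyclic AMP response element (TGACGTCA, 1.65%), an extended ETS site (CCGGAAGT, 3.42%) and the serum response element (1.16%) had no match in any of the 3 windows, and the ETS core GGAA, in 92.7% of windows, had a match in each. A match describes letters and is not a measured site.

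Receptors of thrombospondin-1 were only in part named (6 of 13), without the integrins. SDC4, which encodes the heparan sulphate proteoglycan syndecan-4, was 1.59-fold higher (8.80 and 9.47). CD47 read 8.39 and 8.48, SDC1 8.94 and 8.78, and CALR 10.65 and 10.36. The list's median difference over its 4 kept genes was -0.03.

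Other matrix genes were read from 14 lists of proteases, inhibitors, matrix proteins, their modifiers and regulators of MMP1, of whose 197 genes 110 were named and 63 kept. Without the 6 members, 9 of 58 kept genes (15.5%) were at least 1.5-fold higher and 0 were lower, where 3.95% of all kept genes were higher and 1.12% lower. After repeated quantile normalization 5 of 58 (8.62%) were higher, where 3.21% of all kept genes were. Their median difference was 0.06, against 0.01 over kept genes. These counts describe lists written with earlier results of these arrays known, and 4 of the 9 genes are transcription factors of the list of MMP1 regulators.

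**Figure D4:**
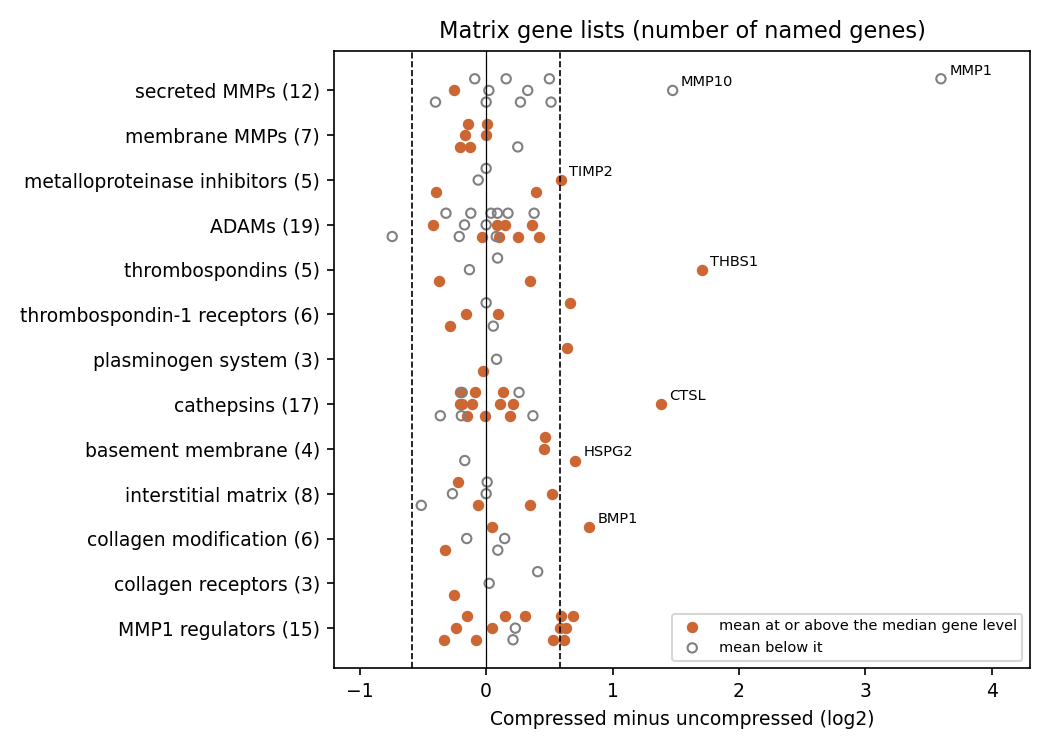
Difference between compressed and uncompressed (log2, horizontal axis) for every named gene of the 13 matrix gene lists with any named gene (rows, with the number of named genes), filled where the mean level was at or above the median gene level and open where it was below, with dashed lines at 1.5-fold. MMP1, THBS1, MMP10 and CTSL stand far to the right of their lists, the membrane MMPs lie between the dashed lines, and 1 ADAM gene, ADAM30 at -0.74, lies beyond the lower one.

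Among proteases, CTSL, which encodes the lysosomal cysteine protease cathepsin L, read 5.63 and 7.01 and was 2.61-fold higher. It was the 1 of 12 kept genes of the cathepsin list that passed, which for 12 genes is near the background of 3.95% higher. The list's median over kept genes was -0.05, with CTSB at -0.11 and CTSD at 0.11. BMP1, which encodes the astacin metalloproteinase that removes the C-terminal propeptide of procollagen, was 1.76-fold higher (4.90 and 5.72). ANXA2, a docking protein for plasminogen and its activator, was 1.56-fold higher (5.90 and 6.54), although its partner S100A10 differed by -0.03. ANXA2 fell short of the size rule after repeated quantile normalization, at 0.58 (0.576 against 0.585). The plasminogen activators, their receptor and their serpin inhibitors were not analysed here.

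Basement membrane genes were named in 4 of 21 cases, with no laminin or type IV collagen among them. HSPG2, which encodes perlecan, was 1.63-fold higher (6.16 and 6.86). AGRN, which encodes agrin, differed by 0.47 and NID1, which encodes nidogen-1, by 0.45. The 3 kept genes thus all had positive differences, of which only that of HSPG2 passed the size rule. They are 3 of the 21 listed genes, and the median difference over all kept genes was 0.007. NID2, at 3.42 and 3.26, was not kept. In the interstitial matrix list 4 of 24 genes were kept and 0 passed, which for 4 genes is near the background of 3.95% higher and 1.12% lower. VCAN, which encodes the proteoglycan versican, had a pair of probe sets that differed by 0.52 and 0.66, at 9.52 and 10.04 for the brighter one. By the mean of both probe sets it passed the size rule, at 0.59. TNC, which encodes tenascin-C, differed by -0.07. The lysyl oxidase genes LOXL1 and LOXL4 differed by -0.33 and 0.05, and the collagen receptor DDR1 by -0.26. All 4 probe sets of DDR1 had negative differences. A pair of them had the same readings (7.85 and 7.63), so the 4 are not separate measurements.

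Of the 16 regulators of MMP1, 15 were named and 13 kept, with a median difference of 0.30. By the size rule 4 of the 13 were higher and 0 lower, where 3.95% of all kept genes were higher and 1.12% lower. After repeated quantile normalization 1 of the 13 (7.69%) was higher, where 3.21% of all kept genes were. For 13 genes that is near the background. The full list comprises AP-1, ETS and RUNX factors, CEBPB, the inducer basigin (BSG) and the protease-activated receptor F2R. FOS, JUND, ETS1 and FOSB were 1.61-fold, 1.54-fold, 1.55-fold and 1.51-fold higher. JUND, ETS1 and FOSB fell short of the size rule after repeated quantile normalization, FOSB also after loess correction, and FOS and FOSB by the mean of their probe sets. FOSL1 differed by 0.53, JUNB by 0.58 (0.582 against 0.585), JUN by -0.15, ETS2 by -0.24 and BSG by -0.34.

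By the distance between their pairs of levels on the 2 arrays, the genes closest to MMP1 were RRAD (3.68 and 6.30, distance 0.77), the chemokine gene CXCL8 (3.37 and 5.82, distance 0.84) and KRTAP2-3 (4.45 and 6.51, distance 1.5). The nearest to THBS1 were the immediate-early gene ARC (5.46 and 7.25, distance 0.12), the polyamine acetyltransferase gene SAT1 (5.46 and 7.16, distance 0.16) and LINC-PINT (5.74 and 7.18, distance 0.19). Such distances compare different probes on 2 arrays and describe likeness of readings only.

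Of the 10 markers of ductal epithelium 8 were named and 6 kept. KRT18 read 11.54 and 11.71, KRT19 10.78 and 10.79, CEACAM6 10.88 and 10.87 and EPCAM 10.77 and 10.43. KRT8 read 6.13 and 6.21 and CEACAM5 5.45 and 5.51. CLDN4, at 4.80 and 4.73, and KRT7, at 3.36 and 3.78, were not kept. Of the 11 fibroblast markers 4 were named, and their summed level was 9.84 uncompressed and 9.52 compressed on the log2 scale. Such a sum adds signals of different probes and is compared only between the arrays. Lumican (LUM) read 9.75 and 9.39 and made up most of the fibroblast sum. Decorin (DCN) read 1.79 and 1.82, THY1 4.77 and 4.99, and PDPN 4.83 and 4.81. The 5 named of 7 endothelial markers summed to 6.40 and 6.32. Of 9 leukocyte markers 5 were named, with a sum of 8.66 and 9.38. Among them CD68, a lysosomal protein gene, made up most of that sum and was 1.75-fold higher (8.45 and 9.26). The other 4 read at most 4.26 on either array. The samples were cultures of the AsPC-1 line, so these readings are not taken as shares of cell types. Whether the CD68 and CTSL differences are linked was not tested.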

How the data were processed

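The deposited values are log2 levels of 53617 probe sets on 2 arrays. For these log2 values the submitters' processing notes name RMA and, as software of the authors, the Transcriptome Analysis Console, with versions, library files and array build not given in the sources used here. RMA forces the probe intensities of both arrays to 1 distribution and shrinks differences near background, so a shift common to all genes would be lost. The deposited levels still differed slightly in distribution, with medians over all probe sets of 3.75 uncompressed and 3.72 compressed. Repeated quantile normalization moved the median difference of kept genes from 0.007 to -0.028. Without detection calls or scanner intensities, dim levels could not be set against background. With 1 array per group the spread between cultures is unknown.

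The platform annotation named 1 gene for 16098 probe sets and several for 0, and left 37519 unnamed here. All 16098 gene identifiers matched the RefSeq table (GRCh38.p14). The brightest probe set represented a gene. Kept genes had a mean at or above the median over genes. No test was made, and genes were counted at 1.5-fold. Members, lists and rules were chosen with earlier results of these data known. The genes named are the 6 members, up to 3 genes in each direction per list past 1.5-fold, the brightest paralogs and the 3 nearest readings to MMP1 and to THBS1. Others named, such as MMP10, MT1B, VCAN and those given as not passing, were chosen after their values were seen. Motifs were searched in RefSeq windows. The planned comparison of protein sequences was not run. The list of ADAMTS proteases had 0 of 19 genes named. Python 3.11.15 was used with pandas 2.3.3, NumPy 2.4.6, statsmodels 0.14.6 (loess) and matplotlib 3.10.9 (figures).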

Additional observations from a re-analysis of the deposited data

How the results depend on the processing

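The alternatives were centring on the median difference, loess against mean level, repeated quantile normalization of the named probe sets, the mean of all probe sets, other level filters and other sizes. MMP1 (3.59 to 3.63), THBS1 (1.67 to 1.68) and ADAM9 (0.33 to 0.43) stayed on their side of the size rule under the loess fit and under repeated quantile normalization, as did MMP14 and MMP15. For the 6 members, centring adds 0.009 to each difference and the mean of probe sets changes nothing, since each has 1 probe set, so neither bears on stability. TIMP2 fell short after repeated quantile normalization (0.584), the cause was not tested. Kept genes past 1.5-fold numbered 294 higher and 83 lower. They became 560 and 421 with no level filter, 137 and 30 with the floor at the 75th percentile, 71 and 6 at 2-fold, and 1005 and 616 at a ratio of 5 to 4, by construction of more or fewer genes or another size. The matrix lists, with 11 higher and 0 lower, gave 6 higher after repeated quantile normalization (TIMP2, ANXA2, FOSB, JUND and ETS1 fell short, the cause was not tested) and 1 lower with no level filter. No paired analysis was possible because each group has 1 array. No replicate could be left out.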

Other observations

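Equal readings on both arrays were found for 5.82% of all probe sets. Besides MMP14 they included the inhibitor RECK (3.10), MMP19 (3.71), ADAM22 (2.92), the thrombospondin receptor CD36 (1.96) and the matrix protein gene FN1 (3.18). All but MMP14 of those named lay below the median gene level. A difference of exactly 0 thus recurs in the deposited values, less often among kept genes (182 of 7442). It is no measure of how precisely a level was held. For MMP25, a membrane-anchored MMP, 3 probe sets differed by -0.45, 0.18 and -0.21, a spread wider than the difference of MMP15 or of any kept membrane MMP from 0.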
